A study of Mus musculus with 8 samples.

Results

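The genes described here encode the enzymes that build fatty acids and those that burn them, in mouse CD8+ T cells with and without the kinase LKB1. The 40 members, 18 of synthesis and 22 of oxidation, were taken by exact symbol from count tables of 24421 genes, and all 40 symbols were found. Naive CD8+ T cells, the precursors of cytotoxic T cells, had been stimulated on plates for 48 hours through CD3 and CD28, and RNA was counted at its 3' ends. Of the 8 libraries, 4 carried the genotype label LKB1 wild type and are called control, and 4 were labelled LKB1-deficient. The labels do not give the allele, the promoter that deleted the gene, the age or sex of the mice, or whether each replicate is its own animal. The p-values therefore cover just the spread among these libraries, which may be technical. Both groups were activated, and no unstimulated cells were analysed here.

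LKB1 activates AMPK, a kinase that responds to low cellular energy. AMPK inhibits acetyl-CoA carboxylase, which makes malonyl-CoA, the building block of fatty acid synthesis. Malonyl-CoA also blocks CPT1, the enzyme that lets long-chain fatty acids into mitochondria, so the same reaction feeds synthesis and restrains oxidation. Activated T cells make fatty acids for new membranes as they grow, and oxidation is best known in memory T cells. This control acts on enzyme activity, which RNA counts do not measure.

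Values are CPM, counts per 1000000 counts of a library after scaling by TMM factors (trimmed mean of M values), as mean ± SD with n = 4 per group. A log2 fold change is above 0 where LKB1-deficient cells were higher, and is given with its approximate standard error (SE) and a p from edgeR's quasi-likelihood test adjusted by Benjamini-Hochberg over 10396 tested genes. A gene was called when this adjusted p was below 0.05. Each control library held 7090252 to 12211930 gene counts and each LKB1-deficient one 3454388 to 6356125, so low genes were less precise in the LKB1-deficient libraries. LKB1-deficient replicates 2 and 4 lay apart from the other 2 libraries of their group on the first principal component of all genes (51.7 and 54.4 against 12.5 and 6.79). Stk11, which encodes LKB1, did not differ (log2 fold change -0.03, adjusted p = 0.911), and a 3' count cannot check a deletion that leaves the 3' end, so the genotype labels were not checked by it. Of 7 CD8 T cell markers all were detected and 3 were lower in LKB1-deficient cells, among them Cd8a (log2 fold change -0.76). Counts outside genes were 12.1% to 14.3% in control and 14.9% to 17.5% in LKB1-deficient libraries, highest in LKB1-deficient replicates 2 and 4. Alignments that were not unique came to 2.92 to 3.5 per gene count in control and 2.21 to 2.65 in LKB1-deficient libraries. The 5 NK cell markers summed to 0.812 to 1.82 CPM in control and 2.25 to 6.12 CPM in LKB1-deficient libraries, without overlap, with Klra8 and Klra4 at 0 and no call. CD4 T cell markers, 4 in all, summed to 6.56 to 9.08 CPM in control and 3.23 to 9 CPM in LKB1-deficient libraries, with no call. The 5 B cell markers summed to 7.23 to 13 and 4.56 to 9 CPM, mostly from Cd79b, which was lower (log2 fold change -0.94, adjusted p = 0.0164), while Cd79a was at 0 in 7 of 8 libraries. The 7 myeloid markers summed to 7.55 to 11.7 and 8.36 to 17.2 CPM, with no call. The 7 mast cell and basophil markers summed to 6.88 to 10.5 CPM in control and 12.1 to 37.9 CPM in LKB1-deficient libraries, 2 of the 4 tested were higher, and none was at 0 in all libraries. The part of these markers and of the library measures in the results below was not tested.

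The synthesis genes that passed the test were all higher in LKB1-deficient cells and the oxidation genes that passed were all lower. Among 16 tested synthesis genes, 4 rose in LKB1-deficient cells and none fell: Fasn, Elovl6, Acsl4 and Elovl1. Among 20 tested oxidation genes, 5 fell and none rose: Decr1, Etfdh, Acaa2, Acadvl and Echs1. The 4 higher genes are 25% of the tested synthesis genes, against 12.4% called higher among all tested genes. The 5 lower genes are 25% of the tested oxidation genes, against 10.1% called lower among all tested genes. The median log2 fold change was 0.13 over the synthesis genes and -0.35 over the oxidation genes, beside 0.00 over all genes. Of the oxidation genes 18 of 20 had a negative value, beside 5165 of 10396 genes. For the zero counts, edgeR at an unadjusted p below 0.05 gave 4 lower synthesis genes (18.4% of all genes) and 1 higher oxidation gene (20.8% of all genes). DESeq2 called 1 lower synthesis gene and 0 higher oxidation genes, where it called 12.9% of all genes lower and 16.4% higher, and limma-voom called 0 of each. Groups did not overlap in 5 of 16 synthesis genes (31.2%) and 8 of 20 oxidation genes (40%), against 26.1% of all tested genes.

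The number called changed with the libraries used. With both LKB1-deficient replicates 2 and 4 left out, 1 synthesis gene was higher and 1 oxidation gene lower, while the calls among all genes fell from 1286 to 162 higher and from 1051 to 98 lower. The synthesis count was 2 without control replicate 1 or 2 and 1 without control replicate 3, control replicate 4, LKB1-deficient replicate 2 or LKB1-deficient replicate 4. The oxidation count was 3 without control replicate 3. Calls among all genes fell to 974, 1126, 560 and 710 higher and 668, 872, 451 and 593 lower genes on leaving out control replicates 1, 2, 3 and 4 in turn. They fell to 637 higher and 476 lower on leaving out LKB1-deficient replicate 2 and to 576 and 441 on leaving out replicate 4. Without LKB1-deficient replicate 1 they were 1404 higher and 1041 lower, and without LKB1-deficient replicate 3 they were 1472 and 1353. In the EU libraries, those whose sample identifiers start with EU (replicates 2 to 4), 2 synthesis genes were higher (11.2% of all genes were) and 4 oxidation genes lower (6.39% of all genes were). Replicate 1 of each group, the ET libraries, cannot be tested alone. With total count scaling the median was -0.16 for all genes, -0.03 for the synthesis genes and -0.51 for the oxidation genes. This scaling called 2 synthesis genes higher (7.97% of all genes were) and 2 synthesis and 8 oxidation genes lower (15.2% of all genes were).

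**Figure D1:**
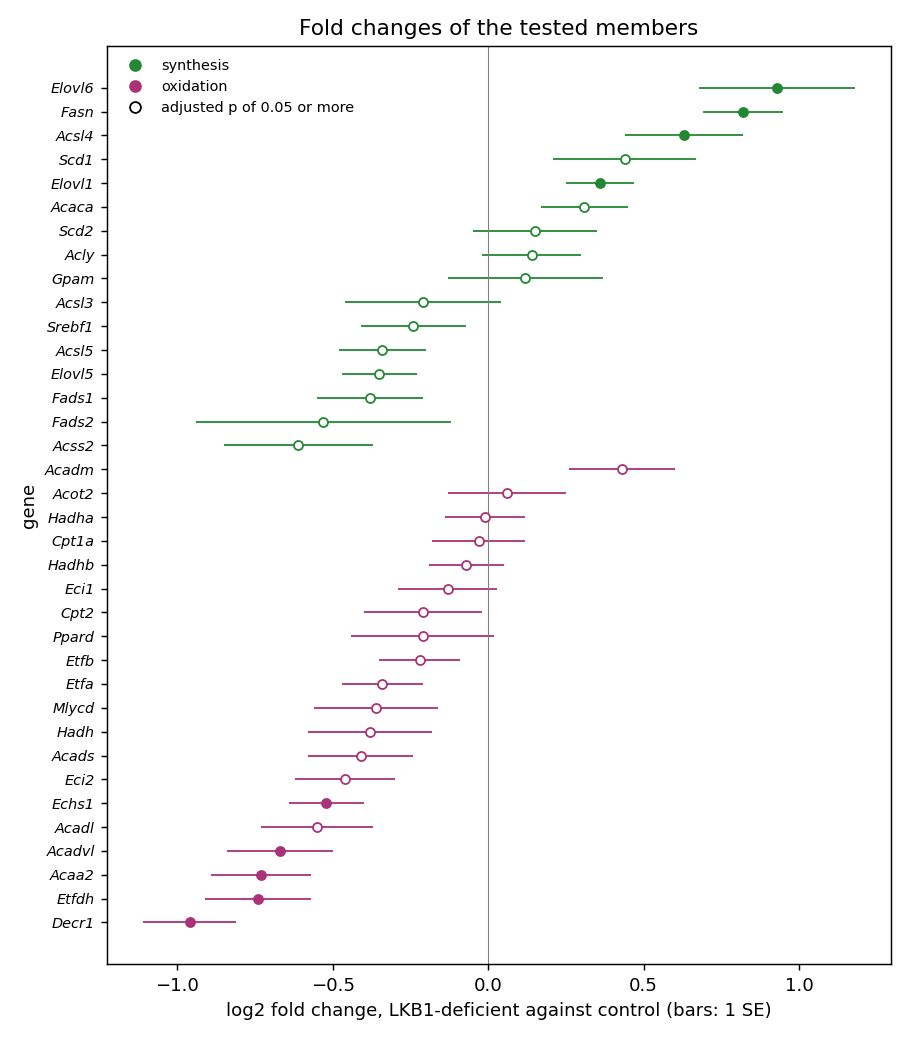
Log2 fold change (LKB1-deficient against control) of the 16 synthesis and 20 oxidation genes tested, with bars of 1 SE; filled points passed an adjusted p of 0.05. The 4 filled synthesis points lie right of 0, between 0.36 and 0.93, and the 5 filled oxidation points lie left of it, between -0.96 and -0.52.

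Promoter sequence is shown for the called members whose window just upstream of the start site held no annotated exon. They were chosen by their calls, and whether they share a regulator was not tested. Sequences are the 250 bases before the RefSeq start site (GRCm38.p6), 5' to 3' on the gene's strand. Capitals mark CCAAT, the box bound by NF-Y, on either strand. Fasn (chr11:120824548-120824797, minus strand), Elovl1 (chr4:118427843-118428092, plus strand, the first of its start sites), Acsl4 (chrX:142390536-142390785, minus strand) and Acadvl (chr11:70015429-70015678, minus strand) read:
Fasn: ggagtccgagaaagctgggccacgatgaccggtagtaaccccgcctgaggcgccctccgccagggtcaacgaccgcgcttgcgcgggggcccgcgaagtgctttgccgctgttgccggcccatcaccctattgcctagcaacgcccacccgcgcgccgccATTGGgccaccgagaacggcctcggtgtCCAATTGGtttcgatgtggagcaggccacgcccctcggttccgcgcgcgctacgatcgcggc
Elovl1: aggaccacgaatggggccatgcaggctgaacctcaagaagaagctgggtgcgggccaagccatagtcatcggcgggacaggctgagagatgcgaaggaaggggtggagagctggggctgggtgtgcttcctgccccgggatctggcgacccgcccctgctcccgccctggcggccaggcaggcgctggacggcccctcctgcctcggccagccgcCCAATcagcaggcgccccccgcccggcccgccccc
Acsl4: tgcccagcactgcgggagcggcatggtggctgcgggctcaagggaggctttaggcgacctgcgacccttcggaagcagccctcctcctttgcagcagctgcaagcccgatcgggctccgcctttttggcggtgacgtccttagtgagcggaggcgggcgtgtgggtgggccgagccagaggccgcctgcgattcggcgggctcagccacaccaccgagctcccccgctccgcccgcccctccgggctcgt
Acadvl: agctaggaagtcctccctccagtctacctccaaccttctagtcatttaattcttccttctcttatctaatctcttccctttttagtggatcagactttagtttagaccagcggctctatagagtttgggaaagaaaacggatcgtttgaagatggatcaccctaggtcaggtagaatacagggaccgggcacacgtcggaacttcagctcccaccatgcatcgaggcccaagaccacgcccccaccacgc
Fasn held CCAAT or its complement at 90, 62 and 59 bases before the start site, the last of these overlapping, and Elovl1 held 1 match at 35 bases. The Acsl4 and Acadvl windows held none. Of the synthesis genes 15 had a window in the RefSeq table, some with several start sites, and CCAAT was in 11 of their 20 windows. The 19 oxidation genes in the table had 1 window each, and 9 of these 19 held it, while 33.8% of all 32851 windows of this length did. The letters TCACNCCAC, a core of the sterol regulatory element that SREBP factors bind, were in 1.05% of all windows and in no member's. No member's window held TCAAGGTCA, the element of estrogen-related receptors, found in 0.387% of all windows. The E-box CACGTG was in 1 of the 20 synthesis windows, that of Elovl5, against 6.02% of all. The direct repeat that PPAR receptors bind with RXR, searched as its core letters, was in 1 of the 20, at the second start site of Elovl1, against 0.338% of all. None of the 19 oxidation windows held the E-box or the direct repeat. Both strands were searched for each motif. Scd1, Scd2, Fads1, Cpt1b, Acaa2 and Decr1 had no window in the table.

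Fatty acid synthase, which assembles palmitate from malonyl-CoA, had the most marked rise relative to its error among the synthesis genes. Fasn (chromosome 11, 120805846 to 120824547, minus strand, GRCm38) was at 127, 115, 120 and 127 CPM in control replicates 1 to 4 and at 235, 221, 181 and 229 CPM in LKB1-deficient replicates 1 to 4. All LKB1-deficient libraries lay above all controls, and replicate 3 was the lowest of the LKB1-deficient group. Its mean went from 122 ± 5.89 to 216 ± 24.3 CPM (log2 fold change 0.82 ± 0.13 SE, adjusted p = 0.00434). The call held without each single library and without both LKB1-deficient replicates 2 and 4. It ended when each library's trend on transcript length was removed (log2 fold change 0.25, adjusted p = 0.343). Fasn has an annotated transcript of 10050 bases, and its place in that trend is described further on.

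The elongases add carbon pairs to finished fatty acids. Elovl6 (chromosome 3, 129532355 to 129638495, plus strand), which extends palmitate to stearate, was at 99.3, 87.2, 73.7 and 59.9 CPM in control replicates 1 to 4 and 87.2, 195, 142 and 188 CPM in LKB1-deficient replicates 1 to 4. LKB1-deficient replicate 1 lay within the control range and the other 3 above it. This rise came to 0.93 ± 0.25 SE on the log2 scale (adjusted p = 0.0273). Leaving out control replicate 3, control replicate 4, LKB1-deficient replicate 2 or LKB1-deficient replicate 4 ended this call (adjusted p from 0.0722 to 0.0841). So did fits without both LKB1-deficient replicates 2 and 4 (log2 fold change 0.53, adjusted p = 0.259), and with the length trend removed (0.64, adjusted p = 0.0527). Elovl1 (chromosome 4, 118428093 to 118432953, plus strand), which acts on very long saturated chains, was at 73, 66.4, 70.8 and 75.6 CPM in control and 95.7, 88, 88.1 and 96 CPM in LKB1-deficient replicates 1 to 4. These groups did not overlap, but the difference was small (log2 fold change 0.36 ± 0.11 SE, adjusted p = 0.0378), and leaving out any 1 library except LKB1-deficient replicate 3 ended the call (adjusted p between 0.0602 and 0.102). Upper quartile and total count scaling ended it as well (adjusted p = 0.146 and 0.316). With the length trend removed the log2 fold change was 0.54 (adjusted p = 0.0107). Elovl1 shares 53 exon bases with Cdc20 on the other strand, and Cdc20 was at 252 and 269 CPM (adjusted p = 0.647). Whether counting used strand is not given in the sources used here. Elovl5, which extends polyunsaturated chains, was at 77 to 87.9 CPM in control and 56.9 to 70.6 CPM in LKB1-deficient libraries. Its groups did not overlap, in the opposite direction from the other elongases, and it did not pass (log2 fold change -0.35 ± 0.12 SE, adjusted p = 0.0571). It passed without LKB1-deficient replicate 3 (adjusted p = 0.0473), with DESeq2's Wald test (adjusted p = 0.0199) and when the filter was a mean CPM of 10 (adjusted p = 0.0452). It also passed with upper quartile and total count scaling (adjusted p = 0.0385 and 0.0389).

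Before fatty acids can be used they are joined to coenzyme A by acyl-CoA synthetases. Acsl4 (chromosome X, 142317993 to 142390535, minus strand), which prefers arachidonate and other polyunsaturated acids, was at 83.7, 104, 93.4 and 88.9 CPM in control and 115, 201, 108 and 151 CPM in LKB1-deficient replicates 1 to 4. The groups did not overlap, and LKB1-deficient replicates 2 and 4 were the highest. On the log2 scale the rise was 0.63 ± 0.19 SE (adjusted p = 0.0416). Leaving out any control library, LKB1-deficient replicate 2 or LKB1-deficient replicate 4 gave an adjusted p from 0.0527 to 0.1. Without both of these LKB1-deficient libraries it was 0.285 at a log2 fold change of 0.28, and with the length trend removed it was 0.109. Upper quartile and total count scaling gave 0.0547 and 0.0768. Acsl5 was at 277 to 338 CPM in control and 214 to 279 CPM in LKB1-deficient libraries (log2 fold change -0.34 ± 0.14 SE, adjusted p = 0.109). Acsl3 was at 30.8 to 60.5 and 34.6 to 56.6 CPM (adjusted p = 0.571). Gpam, which starts glycerolipid synthesis by joining acyl-CoA to glycerol phosphate, was low and alike in range, 2.36 to 2.99 and 2.33 to 4.04 CPM (adjusted p = 0.752). Other synthetases, Acsl1 and Acsl6, are described with the further synthesis genes.

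No gene of acetyl-CoA supply or carboxylation passed. Acaca, the cytosolic acetyl-CoA carboxylase that AMPK inhibits, was at 23.1, 21.8, 23.5 and 24.3 CPM in control and 30.9, 22.1, 31.2 and 29.9 CPM in LKB1-deficient replicates 1 to 4. LKB1-deficient replicate 2 lay within the control range and the other 3 above it (log2 fold change 0.31 ± 0.14 SE, adjusted p = 0.127). Removing the length trend turned this value to -0.22 (adjusted p = 0.503). Acacb, the carboxylase at the mitochondrial surface, had 2, 4, 6 and 6 counts in control and 0, 1, 2 and 0 counts in LKB1-deficient replicates 1 to 4, too few to test. Acly, which splits citrate into cytosolic acetyl-CoA, was at 128 to 163 CPM in control and 128 to 202 CPM in LKB1-deficient libraries (adjusted p = 0.564). Acss2, which makes acetyl-CoA from acetate, was at 14.5, 16, 12 and 13.8 CPM in control and 8.16, 11.9, 11.5 and 4.85 CPM in LKB1-deficient replicates 1 to 4. The closest pair of values, 12 and 11.9, nearly met, and the difference did not pass (log2 fold change -0.61 ± 0.24 SE, adjusted p = 0.0926; adjusted p = 0.0465 with total count scaling). Its exons overlap those of Gss, Ggt7 and Acss2os on the other strand. Gss was at 19.3 CPM in control and 17.5 CPM in LKB1-deficient libraries, Ggt7 at 1.95 CPM in both groups, and Acss2os at 0.

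Me1, the malic enzyme that supplies NADPH for synthesis, was near the detection limit. It had 2, 0, 5 and 1 counts in control and 3, 5, 13 and 7 counts in LKB1-deficient replicates 1 to 4, that is 0 to 0.378 CPM against 0.844 to 2.05 CPM. Every LKB1-deficient library lay above every control in CPM, at lower depth. It failed the count filter and was not tested. With no filter, over 15330 genes of which 7.47% were called higher, edgeR gave a log2 fold change of 3.02 ± 0.65 SE (adjusted p = 0.0103), a size that depends on the prior count because the 4 control libraries hold 8 counts in all.

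The desaturases and their regulator did not pass. Scd1, which makes oleate from stearate, was at 31.5 to 55.6 CPM in control and 42 to 82.5 CPM in LKB1-deficient libraries (log2 fold change 0.44 ± 0.23 SE, adjusted p = 0.175). Scd2, its relative, was at 395 to 578 and 427 to 698 CPM (0.15 ± 0.20 SE, adjusted p = 0.598). Fads1 and Fads2, which place double bonds in polyunsaturated acids, had values on the other side of 0. Fads1 was at 42.5 to 59 CPM in control and 32.9 to 47.8 CPM in LKB1-deficient libraries (-0.38 ± 0.17 SE, adjusted p = 0.114). Fads2 was at 4.13 to 8.93 and 1.46 to 8.34 CPM (-0.53 ± 0.41 SE, adjusted p = 0.36). Srebf1, encoding the transcription factor SREBP-1 that drives many synthesis genes, was at 91.9, 101, 112 and 95 CPM in control and 91.2, 59.7, 107 and 80.1 CPM in LKB1-deficient replicates 1 to 4 (-0.24 ± 0.17 SE, adjusted p = 0.323). Its groups overlapped. Of all synthesis members, 6 lie on chromosome 19 (Scd1, Scd2, Fads1, Fads2, Acsl5 and Gpam).

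**Figure D2:**
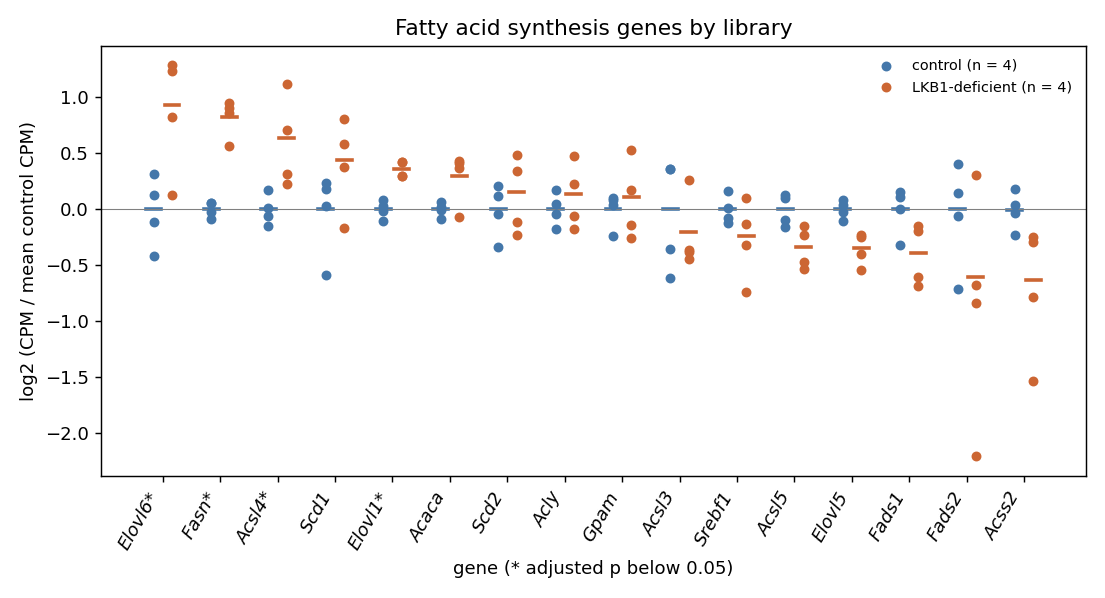
CPM of the 16 tested synthesis genes in each library, as log2 of the ratio to the mean control CPM of that gene; points are libraries (4 control, 4 LKB1-deficient), short lines are group means, and an asterisk marks an adjusted p below 0.05. The orange points of Fasn, Acsl4 and Elovl1 all lie above the blue ones, while 1 orange point of Elovl6 lies among them.

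On the oxidation side, the lower genes belonged to steps after entry into the mitochondrion. Decr1 (chromosome 4, 15917240 to 15945507, minus strand), the dienoyl-CoA reductase needed to oxidise polyunsaturated acids, was at 31.9, 29.7, 33.6 and 36.2 CPM in control and 15.5, 13.4, 20.1 and 18.1 CPM in LKB1-deficient replicates 1 to 4. The lowest control stood well above the highest LKB1-deficient library. Its mean fell from 32.8 ± 2.78 to 16.8 ± 2.95 CPM, which is 1.94-fold lower (log2 fold change -0.96 ± 0.15 SE, adjusted p = 0.00476). Decr1 kept its call under all 22 alternatives run, with an adjusted p of at most 0.046. The enoyl-CoA isomerases Eci1 and Eci2, which also serve unsaturated acids, did not pass. Eci1 was at 61.4 to 76.4 CPM in control and 46.7 to 75.5 CPM in LKB1-deficient libraries (adjusted p = 0.574). Eci2 was at 57.3 to 69 and 32.1 to 54 CPM, groups that did not overlap (log2 fold change -0.46 ± 0.16 SE, adjusted p = 0.0661, and 0.0412 with DESeq2's Wald test). In Eci1 and Eci2, 6.43% and 14.6% of the 50-base words in the last 500 transcript bases also occur in transcripts of other genes, so some reads may not have been assigned to them.

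Electrons from the first oxidation step pass through the ETF proteins to ubiquinone. Etfdh (chromosome 3, 79603788 to 79629500, minus strand), the oxidoreductase at the end of this path, was at 43.8, 56.4, 46.2 and 40.4 CPM in control and 26.2, 27.1, 35.6 and 22.1 CPM in LKB1-deficient replicates 1 to 4. The groups did not overlap, and LKB1-deficient replicate 3 was closest to the controls. Etfdh shares 278 exon bases with 4930579G24Rik on the other strand, which was at 24 CPM in control and 21.2 CPM in LKB1-deficient libraries (adjusted p = 0.437), close to the 27.7 CPM of Etfdh itself in the latter. The fall of -0.74 ± 0.17 SE in log2 terms passed (adjusted p = 0.0156), and the call ended without both LKB1-deficient replicates 2 and 4 (-0.58, adjusted p = 0.135). The 2 subunits of ETF itself did not pass. Etfa was at 199, 203, 236 and 238 CPM in control and 188, 159, 173 and 174 CPM in LKB1-deficient replicates 1 to 4, without overlap (-0.34 ± 0.13 SE, adjusted p = 0.0741, and 0.0206 with DESeq2's Wald test). Etfb was at 130 to 165 and 122 to 147 CPM (-0.22 ± 0.13 SE, adjusted p = 0.226). For Etfb, 48.8% of the 50-base words of its 3' end also occur in the annotated transcript Gm45233. Removing the length trend brought Etfa to -0.09 and turned Etfb to 0.13, since their longest transcripts have 1392 and 893 bases.

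The acyl-CoA dehydrogenases start each round of oxidation and differ in the chain length they take. Acadvl (chromosome 11, 70010183 to 70015411, minus strand), which takes very long chains, was at 58, 54.1, 66.6 and 66.4 CPM in control and 37.4, 29.4, 51.6 and 34.8 CPM in LKB1-deficient replicates 1 to 4. The groups did not overlap, with LKB1-deficient replicate 3 just under the lowest control. Its log2 fold change was -0.67 ± 0.17 SE (adjusted p = 0.0248). Its call was lost on leaving out control replicate 3, control replicate 4, LKB1-deficient replicate 2 or LKB1-deficient replicate 4 (adjusted p from 0.0612 to 0.073), in EU libraries alone (adjusted p = 0.0636) and without both LKB1-deficient replicates 2 and 4 (-0.45, adjusted p = 0.181). Dvl2 on the other strand shares 1151 exon bases with Acadvl and was at 18.2 and 17.2 CPM (adjusted p = 0.815). Acadl, which takes long chains, was at 301, 238, 194 and 191 CPM in control and 122, 163, 165 and 182 CPM in LKB1-deficient replicates 1 to 4. These groups did not overlap, yet control replicate 4 and LKB1-deficient replicate 4 were close, and the gene just missed the threshold (-0.55 ± 0.18 SE, adjusted p = 0.0553). DESeq2's Wald test, no filter and a filter at a mean CPM of 10 gave 0.0296, 0.0484 and 0.0469. Of the 22 alternatives run, 5 called Acadl lower, with an adjusted p down to 0.0151.

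Acadm, the medium-chain enzyme, had a value on the other side of 0. It was at 49, 56.5, 46.4 and 45.2 CPM in control and 47.5, 84.2, 65.8 and 67.7 CPM in LKB1-deficient replicates 1 to 4. LKB1-deficient replicate 1 lay within the control range and the other 3 above it. The difference did not pass (log2 fold change 0.43 ± 0.17 SE, adjusted p = 0.0911), but did without LKB1-deficient replicate 1 (0.56, adjusted p = 0.0272). Acads, the short-chain enzyme, was at 14.8 to 16.9 CPM in control and 9.62 to 15.4 CPM in LKB1-deficient libraries (-0.41 ± 0.17 SE, adjusted p = 0.0951). Without LKB1-deficient replicate 3, whose 15.4 CPM lay in the control range, it passed (-0.60, adjusted p = 0.0192).

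The remaining reactions of each round are hydration, a second dehydrogenation and thiolysis. For long chains a single complex, the mitochondrial trifunctional protein, carries out all of them. Its subunits Hadha and Hadhb showed close to no difference: Hadha was at 90.7 to 127 CPM in control and 97.1 to 115 CPM in LKB1-deficient libraries (log2 fold change -0.01 ± 0.13 SE, adjusted p = 0.974). Hadhb was at 32.2 to 38.9 and 31.5 to 35.3 CPM (-0.07 ± 0.12 SE, adjusted p = 0.692). These genes lie head to head on chromosome 5, Hadha on the minus strand up to 30155162 and Hadhb on the plus strand from 30155248. Shorter chains use separate enzymes, of which Echs1 and Acaa2 passed and Hadh did not; the difference from Hadha and Hadhb was not tested. Echs1 (chromosome 7, 140105710 to 140116476, minus strand), the short-chain hydratase, was at 67.5, 62.1, 67.3 and 63.4 CPM in control and 48.4, 46.9, 47.7 and 37.7 CPM in LKB1-deficient replicates 1 to 4. The groups stood apart (-0.52 ± 0.12 SE, adjusted p = 0.016). Without control replicate 3 the adjusted p was 0.0511, and without both LKB1-deficient replicates 2 and 4 it was 0.101. Acaa2 (chromosome 18, 74779197 to 74806208, plus strand), a thiolase, was at 58.2, 57, 71.1 and 51.6 CPM in control and 40.2, 32.6, 41.9 and 28.6 CPM in LKB1-deficient replicates 1 to 4, again without overlap (-0.73 ± 0.16 SE, adjusted p = 0.0138, and 0.113 without both LKB1-deficient replicates 2 and 4). Hadh, the second dehydrogenase, was at 53.1, 63.9, 59.3 and 69.1 CPM in control and 49.2, 32.9, 66.7 and 38.8 CPM in LKB1-deficient replicates 1 to 4. LKB1-deficient replicate 3 lay inside the control range (-0.38 ± 0.20 SE, adjusted p = 0.196), and without it the gene passed (-0.61, adjusted p = 0.0264). Paox, on the other strand, shares 142 exon bases with Echs1 and was at 6.83 and 6.69 CPM.

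**Figure D3:**
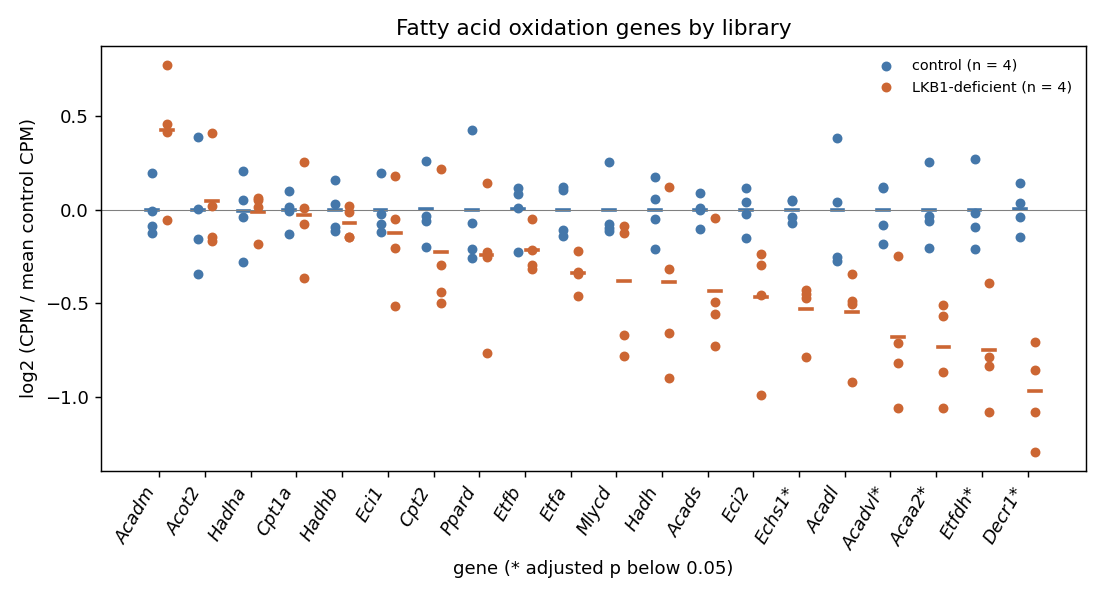
CPM of the 20 tested oxidation genes in each library, as log2 of the ratio to the mean control CPM of that gene; points are libraries (4 control, 4 LKB1-deficient), short lines are group means, and an asterisk marks an adjusted p below 0.05. The orange points of Decr1, Etfdh, Acaa2, Acadvl and Echs1 all lie below the blue ones, while those of Hadha lie within the range of the blue ones and those of Cpt1a lie below, within and above it.

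At the entry step no gene passed. Cpt1a, the CPT1 form of most tissues, was at 17.5, 18.9, 17.8 and 16.1 CPM in control and 17.7, 13.7, 16.7 and 21 CPM in LKB1-deficient replicates 1 to 4 (log2 fold change -0.03 ± 0.15 SE, adjusted p = 0.911). LKB1-deficient replicate 2 lay below the control range, replicate 4 above it and the other 2 within it. Cpt1b, the muscle form, had 3 counts in all control and 4 in all LKB1-deficient libraries, too few to test, and the sequence of its 3' end is wholly shared with Gm44502. Cpt2, on the inner membrane, was at 15 to 20.6 and 12.2 to 20 CPM (-0.21 ± 0.19 SE, adjusted p = 0.43). Mlycd, which destroys malonyl-CoA, was at 11.1 to 14.3 CPM in control and 6.99 to 11.3 CPM in LKB1-deficient libraries (-0.36 ± 0.20 SE, adjusted p = 0.191). Of the nuclear receptors that induce oxidation genes, Ppara had 5 counts in control and 2 in LKB1-deficient libraries in all and was not tested. Ppard was at 8.69 to 14 and 6.12 to 11.5 CPM (adjusted p = 0.525). Acot2, a mitochondrial thioesterase, was at 17.2 to 28.6 and 19.4 to 29 CPM (adjusted p = 0.847).

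Transcript length moved with the fold changes across all genes. In 10 bins of tested genes by their longest annotated transcript, each of 1001 to 1005 genes, the median log2 fold change went from -0.32 in the shortest bin (median 1005 bases) to 0.52 in the longest (median 8099 bases), and it was higher in each bin than in the one before. The tested synthesis genes had longer transcripts than the oxidation genes, with medians of 4362.5 and 2623 bases against 3338 for all genes. With each library's length trend removed, the synthesis median moved from 0.13 to -0.20 and the oxidation median from -0.35 to -0.26. Then 1 synthesis gene was higher, Elovl1 (1811 bases), against 9.12% of all genes. The same 5 oxidation genes, Decr1, Etfdh, Acaa2, Acadvl and Echs1, were lower, against 8.55% of all genes, with log2 fold changes of -0.91, -0.78, -0.52, -0.54 and -0.60. Length here is that of the longest annotated transcript of any type, which need not be the form these cells express. Echs1, taken as 4088 bases, moved from -0.52 to -0.60, and its value with another annotated length was not tested. A 3' count has no built-in dependence on length, and the trend may hold effects of the genotype as well as of the libraries; these cannot be told apart here.

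**Figure D4:**
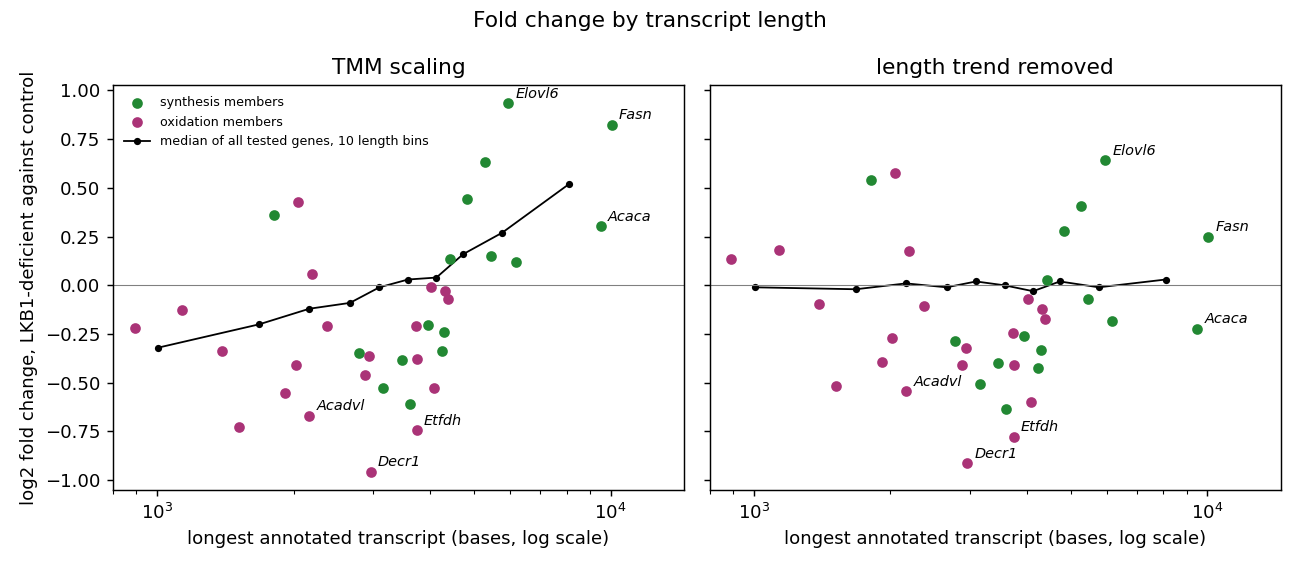
Log2 fold change (LKB1-deficient against control) against the longest annotated transcript in bases (log scale), with TMM scaling on the left and each library's length trend removed on the right; coloured points are tested members and the black line joins the medians of all tested genes in 10 length bins. On the left the line climbs from -0.32 to 0.52 and Fasn and Acaca lie at its long end; on the right the line is flat, Fasn lies at 0.25, Acaca at -0.22, and Decr1, Etfdh and Acadvl stay low.

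Other genes of the same pathways were taken from lists chosen with earlier results of these data known, so they are no independent check on the members. Of 36 tested further synthesis genes (47 listed), 3 rose and 3 fell, with a median of -0.02. These are 8.33% in each direction, below the 12.4% higher and 10.1% lower among all genes. The risers were Acsl6 and Acsl1, acyl-CoA synthetases like Acsl4, and Agpat1, which adds the second acyl chain in glycerolipid synthesis. Acsl6 went from 2.53 ± 1.04 to 11 ± 3.65 CPM (log2 fold change 2.10 ± 0.36 SE, adjusted p = 0.00614). It was at 0.988, 3.09, 3.18 and 2.86 CPM in control and 10.1, 10.2, 7.55 and 16.2 CPM in LKB1-deficient replicates 1 to 4, without overlap, and it kept its call without each single library. Agpat1 went from 37.7 ± 2.54 to 59.8 ± 10.5 CPM (adjusted p = 0.0144) and Acsl1 from 12.9 ± 1.46 to 22.9 ± 6.88 CPM (adjusted p = 0.0231). The Acsl1 call ended without control replicate 1 or 4 (adjusted p = 0.05 and 0.0592), LKB1-deficient replicate 2 (0.0601) or LKB1-deficient replicate 4 (0.0678) and with the length trend removed (0.061), and with both of these libraries left out no call of the further synthesis genes held. The fallers were Cbr4, of mitochondrial fatty acid synthesis (log2 fold change -0.80), Cyb5a, the electron donor of desaturases (-0.51), and Tecr, the last enzyme of elongation (-0.55). None of the fallers kept its call without LKB1-deficient replicate 2 (adjusted p = 0.0527, 0.102 and 0.103) or replicate 4 (0.0535, 0.104 and 0.114), and the calls of Cyb5a and Tecr also ended without control replicate 1, 3 or 4 and that of Tecr without control replicate 2 (0.0508). Removing the length trend ended both, at -0.23 for Cyb5a (adjusted p = 0.171) and -0.30 for Tecr (adjusted p = 0.128). Srebf2, Scap, Insig1 and Mid1ip1, all regulators of synthesis, did not pass (adjusted p = 0.299, 0.336, 0.638 and 0.815).

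Among 37 tested further oxidation genes (48 listed), 3 rose and 7 fell, with a median of -0.33. The share called higher was 8.11% and the share called lower 18.9%, against 12.4% and 10.1% of all genes, and 26 of 37 had a negative value. Rxra, the partner receptor of the PPARs, went from 2.01 ± 0.766 to 13.3 ± 5.5 CPM (log2 fold change 2.73 ± 0.39 SE, adjusted p = 0.00341) and kept its call under all 21 alternatives that tested it. It was at 1.71, 1.87, 1.36 and 3.12 CPM in control and 15.2, 18.6, 5.67 and 13.7 CPM in LKB1-deficient replicates 1 to 4. Mgll, monoacylglycerol lipase, went from 7.5 ± 3.37 to 26.5 ± 13 CPM (1.82 ± 0.41 SE, adjusted p = 0.0143, and 0.0507 without LKB1-deficient replicate 4). Ppargc1b, the coactivator PGC-1 beta, went from 10.6 ± 3.97 to 21.9 ± 6.18 CPM (1.04 ± 0.30 SE, adjusted p = 0.0332). The Ppargc1b call ended without control replicate 2 or 3 (adjusted p = 0.0682 and 0.0671), LKB1-deficient replicate 2 (0.0947) or LKB1-deficient replicate 4 (0.084). These risers are regulators and a lipase, not enzymes of the oxidation rounds. Among the fallers with the smallest p, Acaa1a is a peroxisomal thiolase. Mcee and Pcca act in the breakdown of propionyl-CoA, a product of odd chains but not of fatty acids alone. The share called lower therefore holds genes that do not serve fatty acid oxidation alone. Mcee went from 28.1 ± 5.11 to 16.5 ± 2.38 CPM (adjusted p = 0.0159), Pcca from 18.3 ± 1.1 to 12.4 ± 1.26 CPM (adjusted p = 0.0188), and Acaa1a from 15.3 ± 0.9 to 10.4 ± 1.01 CPM (adjusted p = 0.0224). The call of Mcee ended with the length trend removed (adjusted p = 0.0923). Those of Pcca and Acaa1a ended without control replicate 3 (adjusted p = 0.056 and 0.0718), control replicate 4 (0.0513 and 0.055) or LKB1-deficient replicate 2 (0.0534 and 0.0599), and that of Acaa1a also without LKB1-deficient replicate 4 (0.0645). The count of 7 was 1 without control replicate 3 or LKB1-deficient replicate 2, 2 without control replicate 4 or LKB1-deficient replicate 4, and 3 without control replicate 1.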

How the data were processed

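The 8 libraries, 4 control and 4 LKB1-deficient, were made by 3' RNA-seq from barcoded oligo-dT primers, per the labels' protocols; no molecular identifiers are stated. Each library came as a table of whole-number counts by gene symbol, as the authors deposited it. Per the submitters' processing notes reads were aligned with STAR to mm10; for the counting program and annotation: not given in the sources used here. Library sizes and tests left out 5 lines at the end that stand for no gene; counts outside genes are given as a share of gene, ambiguous and unannotated counts. No 2 libraries of a group agreed within sampling noise (chi-square divided by its degrees of freedom was 11.6 to 49.1).

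Counts were filtered with filterByExpr (minimum count 10, total 15), scaled by TMM and tested by the robust quasi-likelihood test in edgeR 4.0.16 (R 4.3.3), with no covariate. Alternatives used DESeq2 1.42.0, limma 3.58.1, other scalings and filters, a replicate block, the identifier prefix and left-out libraries; thinning every library to 3454388 counts and removing each library's lowess trend (span 0.3) on transcript length were added after the data were seen. Positions and lengths are from GENCODE vM21 (GRCm38, also called mm10); promoters are from RefSeq (GRCm38.p6). Of tested genes 96.5% had a length, and all tested members did. The members, the lists and the alternatives were chosen with earlier results of these data known. The text names every member, and from each list of other pathway genes the 3 called genes of lowest p per direction; Srebf2, Scap, Insig1 and Mid1ip1 were added after their values were seen. Of the listed genes, Gpat3 and Gpat4 were matched by their older symbols.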

Additional observations from a re-analysis of the deposited data

Results flagged for a closer look

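In 72 groups of 4 libraries (36 tested members in 2 groups), the highest or lowest library was checked for a gap to its nearest neighbour above Dixon's critical share of the group's range, which chance gives in about 1 group of 20. Of these, 4 were found. Acaca was at 22.1 CPM in LKB1-deficient replicate 2, below 29.9 to 31.2 CPM in the other LKB1-deficient libraries. Acsl3 was at 56.6 CPM in LKB1-deficient replicate 4, above 34.6 to 36.6 CPM. Echs1 was at 37.7 CPM in LKB1-deficient replicate 4, below 46.9 to 48.4 CPM, and the gene kept its call without that library. Mlycd was at 14.3 CPM in control replicate 4, above 11.1 to 11.4 CPM in the other controls.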

How the results depend on the processing

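Decr1 kept its call throughout; the calls of the other 8 called members each ended under at least 1 alternative named beside them. An adjusted p below 0.01 left 1 synthesis gene, Fasn, and 1 oxidation gene, Decr1, and of other pathway genes 1 higher synthesis, 1 higher oxidation and 0 lower of either list, with 248 higher and 189 lower over all genes. With both LKB1-deficient replicates 2 and 4 left out, the counts were 1 higher synthesis and 1 lower oxidation member (median -0.20), 0 higher and 0 lower other synthesis genes, 1 higher and 0 lower other oxidation genes, and 162 and 98 genes in all. Leaving out 1 library gave 1 to 4 higher and 0 to 1 lower synthesis members, 0 to 1 higher and 3 to 7 lower oxidation members, 2 to 4 higher and 0 to 3 lower other synthesis genes, 1 to 4 higher and 1 to 10 lower other oxidation genes, and 560 to 1472 higher and 441 to 1353 lower genes in all. Fewer libraries were tested in these settings; the cause of the other changes was not tested. Total count scaling gave 2 higher and 2 lower synthesis members (median -0.03), 8 lower oxidation members (median -0.51), 5 lower other synthesis genes and 829 higher against 1576 lower genes in all, and upper quartile scaling 2 higher and 1 lower synthesis member and 1023 higher against 1446 lower genes in all. DESeq2's Wald test gave 1 lower synthesis member, 8 lower oxidation members and 5 higher other synthesis genes. A mean CPM of at least 10 gave 1 lower synthesis member. EU libraries alone gave 2 higher synthesis members (median -0.02), 1 lower other oxidation gene and 666 lower genes in all; a term for the identifier prefix gave 1 lower other synthesis and 4 lower other oxidation genes. Removing the length trend gave 1 higher synthesis member (median -0.20) and 4 lower other oxidation genes. Counts of Me1, Acacb, Cpt1b and Ppara were too low to test; thinning to equal depth left 4 higher synthesis and 5 lower oxidation members.

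Same-numbered libraries did not all deviate together (correlations of -0.25, 0.29, 0.30 and -0.09 for replicates 1 to 4). Not every library correlated best with its own number, so the numbers were not taken as pairs. Across numbers, control replicates 1 and 2 correlated positively with LKB1-deficient replicates 2 and 4 (0.16 to 0.29). Control replicates 3 and 4 did so with LKB1-deficient replicates 1 and 3 (0.04 to 0.34), and the other pairings were negative (-0.37 to -0.09). The libraries may thus share structure across the groups, and its source was not tested. With a replicate block, 2 synthesis members were higher and 5 oxidation members lower.

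Some small, uncalled values changed sign. Log2 fold changes turned to -0.22 (Acaca), -0.07 (Scd2), -0.18 (Gpam), 0.13 (Etfb) and 0.18 (Eci1) with the length trend removed, to -0.01 (Acly), -0.04 (Gpam) and -0.09 (Acot2) with total count scaling, to -0.03 (Acot2) with upper quartile scaling, to -0.05 (Acly), -0.02 (Scd2) and 0.06 (Hadha) in EU libraries, and to -0.06 (Gpam) with thinning. Hadha was at 0.00 with DESeq2 size factors, DESeq2's Wald test, limma-voom and the replicate block. Over the libraries left out in turn, Gpam ranged from -0.03 to 0.22, Cpt1a from -0.13 to 0.07, Hadha from -0.09 to 0.07 and Acot2 from -0.10 to 0.21.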
